A study of Caenorhabditis elegans with 2 samples.

Results

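RNA polymerase II occupancy was examined at the genes that encode the proteasome and its polyubiquitin substrate tag in Caenorhabditis elegans late embryos. The genes were taken from the Ensembl release 115 annotation of build WBcel235 (ce11) by name: every protein-coding gene with the prefix pas-, pbs-, rpt- or rpn-, together with ubq-1 and ubq-2. This gave 35 of the 19973 protein-coding genes on chromosomes I to V and X. They comprised 7 alpha-ring genes, 7 beta-ring genes, 6 ATPase genes, 4 genes for non-ATPase subunits of the base, 9 lid genes and 2 ubiquitin genes. The 35 genes lay on the autosomes only, with 10 on I, 7 on II, 10 on III, 3 on IV and 5 on V.

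The proteasome is the protease that degrades ubiquitin-tagged proteins in the cytosol and nucleus. Its core particle is a barrel of stacked rings, in which the outer alpha rings gate the channel and the inner beta rings carry the proteolytic sites. A regulatory particle caps the barrel: its base holds a ring of ATPases that unfold substrates and subunits that bind ubiquitin chains, and its lid holds the deubiquitinase that removes the chains. Ubiquitin itself is made as fusions, either as a head-to-tail polyubiquitin (ubq-1) or joined to a ribosomal protein (ubq-2).

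The data came from chromatin immunoprecipitation and sequencing (ChIP-seq). The antibody recognised AMA-1, which is the large catalytic subunit of RNA polymerase II. The 2 samples were biological replicates of 1 group, whole late embryos of the wild-type strain N2, of mixed sex and with the age given as unknown. No mutant, treatment or later time was sampled, so no comparison between groups was possible and no test between groups was made. A control experiment that the labels name as possible was not analysed here. The authors deposited a relaxed list of 30000 peaks for replicate 1, for replicate 2 and for both pooled, and a much shorter list thresholded by the irreproducible discovery rate (IDR), which measures how far replicates rank the same peaks highly. The IDR peaks had the same positions as an equal number of the highest pooled peaks. Each peak carries a score deposited by the authors, called its height here, which has no stated scale. Heights reached 1292 in replicate 1 and 144 in replicate 2, with medians of 11.4 and 6.41, so the replicates are compared by rank, where rank 1 is the highest peak of a list. Neither the labels nor the files used here give the read depth. A peak was counted for a gene when its summit lay between 500 bp upstream of the gene's start and 500 bp beyond its end. Whole embryos mix all cell types, so occupancy in fewer cells and lower occupancy per cell cannot be told apart.

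Most of the 35 genes had RNA polymerase II peaks, but few of them had peaks among the highest of the genome. In the relaxed pooled list 33 of 35 genes (94.3%) had a summit, against 49.6% of all protein-coding genes. The members were short, with a median length of 1490 bp against 2027 bp for all protein-coding genes. Among autosomal protein-coding genes within the members' range of lengths, 561 to 4010 bp, 44.2% had a summit in the relaxed pooled list. With the flanks left out, 24 of 35 genes (68.6%) had a pooled summit in the gene body, against 40.3% of all protein-coding genes. Pooled summits were spaced at 0.966 per kb over the members' windows, against 0.354 per kb over the windows of all protein-coding genes. Per replicate, 33 of 35 genes had a summit in the relaxed list of replicate 1, against 46.6% of all genes, and 33 of 35 had one in that of replicate 2, against 61.3% of all genes.

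The share of members was smaller among higher peaks, and it stayed above the share of all genes at each depth tried. Among the 5000 highest pooled peaks 19 genes (54.3%) had a summit, against 17.8% of all protein-coding genes. Among the 1000 highest pooled peaks 5 genes (14.3%) had one, against 4.94% of all protein-coding genes. The IDR list held summits of 2 genes (5.71%), rpt-1 and ubq-1, against 2.44% of all protein-coding genes, a difference that rests on those 2 genes. The median pooled rank of the highest summit was 4135 over the 33 members with one, against 8223 over the 9906 protein-coding genes with one. No set of members was tested against chance, since the genes were chosen with results of these data known.

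**Figure D1:**
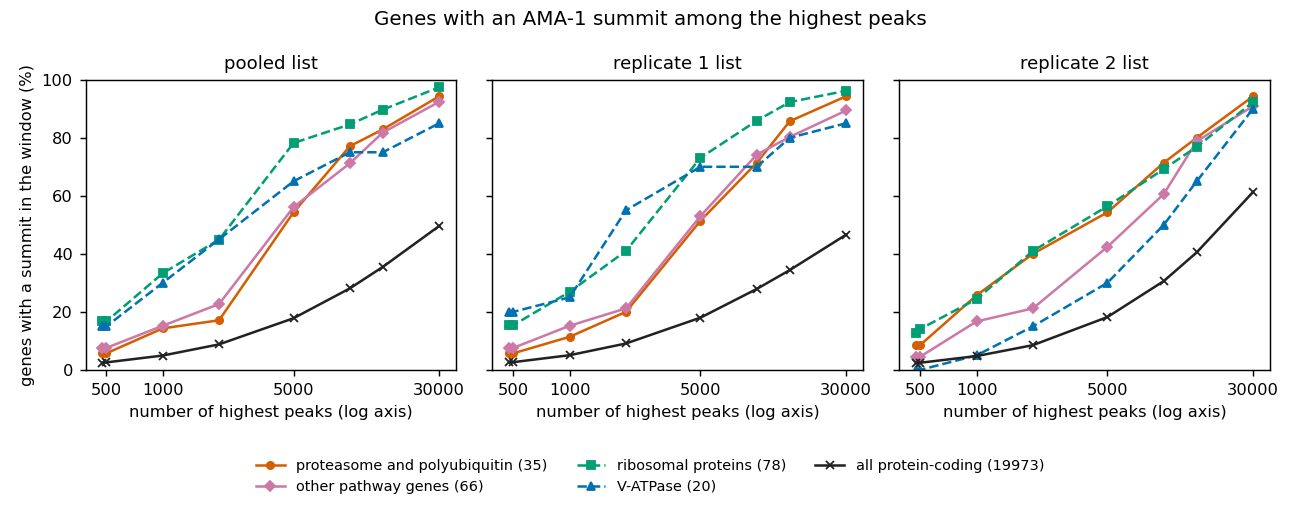
Share of genes (percent, vertical axis) with a summit in the window among a given number of highest peaks (horizontal axis, logarithmic) in the pooled list, replicate 1 and replicate 2. Each point is 1 gene group at 1 list depth; the 35 proteasome and polyubiquitin genes reached 54.3% at the 5000 highest pooled peaks, above the 17.8% of all protein-coding genes.

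Of the ubiquitin genes, ubq-1 (WBGene00006727, III, 5940254 to 5943841, plus strand) carried some of the highest peaks in every list. Its coding sequence of 2514 bases holds 11 full ubiquitin units of 228 bases each in 5 coding exons, preceded by an intron from 168 to 731 bp after the gene's start. The IDR list held 2 summits in its window. The first, at pooled rank 72 with a height of 92.8, lay 538 bp after the start, inside that intron and upstream of the first ubiquitin unit, which begins 737 bp after the start. No other gene's window held it. The second, at rank 68 with a height of 94.2, lay 150 bp beyond the end of ubq-1 and inside the convergent gene F25B5.5, whose end overlaps that of ubq-1 by 9 bp. The sequences around both summits are shown because they mark where polymerase was highest on either side of the ubiquitin repeat. They are 151 bases of ce11 centred on the summit, on the plus strand, at chrIII:5940717-5940867 for the intron summit and chrIII:5943916-5944066 for the summit beyond the end, with no searched motif in either and so no capitals.
ubq-1 intron: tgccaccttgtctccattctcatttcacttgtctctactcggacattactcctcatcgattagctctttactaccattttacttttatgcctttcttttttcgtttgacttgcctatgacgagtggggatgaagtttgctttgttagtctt
ubq-1 beyond the end: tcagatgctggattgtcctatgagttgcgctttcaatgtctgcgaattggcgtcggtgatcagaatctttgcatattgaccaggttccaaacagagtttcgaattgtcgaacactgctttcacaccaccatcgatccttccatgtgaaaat
The GC content was 39.7% in the intron window and 44.4% in the window beyond the end.

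Both replicates had high peaks in the ubq-1 intron. Replicate 1 had a summit 537 bp after the start at rank 78 with a height of 76.2. Replicate 2 had its highest ubq-1 summit 411 bp after the start at rank 88 with a height of 24.2, and a further intron summit 611 bp after the start at rank 472 with a height of 16.4. Beyond the end the replicates were less alike in rank. Replicate 1 had summits 167 bp and 369 bp beyond the end at ranks 65 and 580, with heights of 82.3 and 37.2. Replicate 2 had a summit 168 bp beyond the end at rank 1265, with a height of 13.1. The pooled list held a further summit 349 bp beyond the end at rank 818, with a height of 41.9. Over the ubiquitin repeat itself the pooled summits were lower, with heights of 12.3, 15.8 and 20.9. The repeat also limits what can be read there: the 11 units were 81.1 to 96.5% identical in base sequence, pair by pair, and in the 3 pooled peaks over the coding sequence between 42.2 and 85.6% of the 31-base words occurred only once in the genome. All 31-base words of the peaks at ranks 68 and 72 occurred once. The treatment of reads that match several places is not stated in the sources used here.

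The other ubiquitin gene, ubq-2, encodes ubiquitin fused to a ribosomal protein of the large subunit, and its peaks were lower. Its highest summit ranked 2020 in the pooled list, 3031 in replicate 1 and 1383 in replicate 2, with heights of 32.2, 22.3 and 12.9. The pooled summit and that of replicate 1 lay at the same base, 320 bp beyond the end and 219 bp into the next gene on the same strand, ZK1010.2. In replicate 2 the highest summit lay on the other side, 478 bp upstream of ubq-2 and 161 bp upstream of the divergent gene frg-1.

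The ATPase ring spanned a wide range of ranks, from pooled rank 33 to no peak at all. Its 6 subunits form the motor that unfolds substrates and threads them into the core. The highest summit of all 35 genes in the pooled list lay in the window of rpt-1 (WBGene00004501, V, 11980534 to 11982397, minus strand). The IDR list held 3 summits there, at ranks 33, 228 and 384 with heights of 123, 62.7 and 52.8. The summit at rank 384 lay 128 bp upstream of the start of rpt-1 and 376 bp beyond the end of mans-2, a gene on the same strand whose body ends 503 bp upstream of rpt-1. The other IDR summits lay on the far side of the gene, 423 bp and 220 bp beyond its end, beside a small nuclear RNA gene, T11F9.15, and a non-coding RNA gene, C52E4.14. The summit at rank 33 was 7 bp upstream of the annotated start of T11F9.15 and 388 bp upstream of snr-4, an Sm ribonucleoprotein gene.

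The sequences at ranks 384 and 33 are shown to set the summit before rpt-1 beside the higher summit beyond its end. Both are 151 bases of ce11 centred on the summit and written on the minus strand, the strand of rpt-1, at chrV:11982450-11982600 and chrV:11980036-11980186. Capitals mark TATAAA.
rpt-1 before the start: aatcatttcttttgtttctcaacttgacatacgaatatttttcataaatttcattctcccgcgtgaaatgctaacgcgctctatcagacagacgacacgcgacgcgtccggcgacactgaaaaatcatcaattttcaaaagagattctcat
rpt-1 beyond the end: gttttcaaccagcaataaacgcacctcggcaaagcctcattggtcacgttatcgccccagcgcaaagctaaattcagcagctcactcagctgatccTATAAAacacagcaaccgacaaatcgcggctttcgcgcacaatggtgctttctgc
The window before the start had a GC content of 39.1% and held no TATAAA, and the window beyond the end had a GC content of 50.3%. In the peak at rank 33 only 62.5% of the 31-base words occurred once in the genome, and in the peak at rank 228 70.3% did, against 100% in the peak at rank 384. The part of the repeated sequence in the heights at ranks 33 and 228 was not tested.

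Both replicates had these rpt-1 peaks on both sides of the gene. Before the start, replicate 1 had a summit at 128 bp upstream with rank 746 and a height of 34.6, and replicate 2 had one at 100 bp upstream with rank 653 and a height of 15.1. Beyond the end, replicate 1 had a summit at 276 bp with rank 34 and a height of 111, and replicate 2 had one at 455 bp with rank 123 and a height of 22.4. In both replicates the summit before the start was lower than that beyond the end, and both were among the 1000 highest peaks.

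The remaining ATPase genes had peaks of middle rank or none. The pooled ranks were 3535 for rpt-2, 3656 for rpt-6 and 6410 for rpt-4, with heights of 27.5, 27.2 and 22.4. The highest rpt-2 summit ranked 11003 in replicate 1, at 1 bp before the end, and 1954 in replicate 2, at 234 bp beyond the end. The pooled rpt-2 summit lay 183 bp beyond the end. It and that of replicate 2 lay inside a small nucleolar RNA gene, F29G9.19, and the convergent gene fos-1. The highest rpt-6 summit ranked 2277 in replicate 1. In replicate 2 rpt-6 had no peak at that place and a highest rank of 24473 elsewhere in its window. In the highest rpt-6 peak 73.8% of the 31-base words occurred once. rpt-5 had no summit in the pooled list and low ones in the replicates, at rank 28035 in replicate 1 and 10235 in replicate 2. rpt-3 had no summit in any list, and it was the only member of which that was true.

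**Figure D2:**
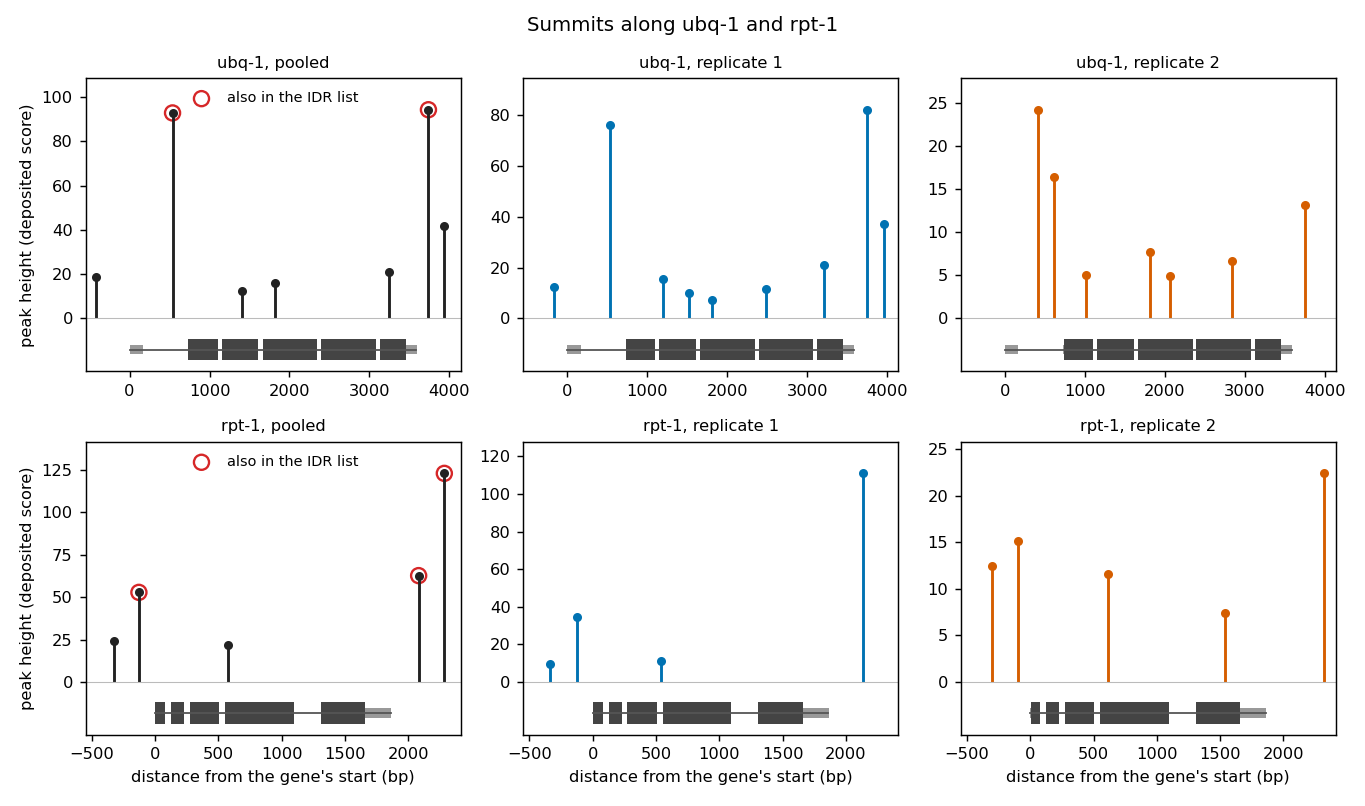
Heights of all summits (deposited score, vertical axis, a separate scale in each panel) along ubq-1 and rpt-1 in the pooled list and in each replicate, by distance from the gene's start (bp). Dark boxes are coding exons, light boxes untranslated exon parts and red circles summits also in the IDR list; for ubq-1 the tall summits at 538 bp and 150 bp beyond the end flank lower ones over the ubiquitin units.

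The lid covers the base and carries the deubiquitinase. The highest summits in the windows of its genes mostly ranked higher in replicate 2 than in replicate 1. Among the 1000 highest peaks of replicate 2 there were summits of 6 of the 9 lid genes (66.7%), against 4.76% of all protein-coding genes. Among the 1000 highest of replicate 1 there were none, where the share of all protein-coding genes was 5.06%, so that a count of 0 of 9 is near the background. Over the 8 lid genes with summits in both replicates, 7 had the lower rank number, and so the higher peak within its list, in replicate 2. The same held for 2 of 7 alpha-ring genes, 3 of 6 beta-ring genes, 3 of 5 ATPase genes, 2 of 4 non-ATPase base genes and 1 of 2 ubiquitin genes. Over all members it held for 18 of 32, against 48.9% of the 7832 protein-coding genes with summits in both. The median rank of the lid genes was 972 over 9 genes in replicate 2 and 4160 over 8 genes in replicate 1. Medians were also lower numbers in replicate 2 for the ATPase ring (1954 against 3924) and the non-ATPase base (3491 against 4906.5). So they were for the ubiquitin genes (735.5 against 1548). The beta-ring medians, 7789 over 6 genes in replicate 2 and 8264 over 7 in replicate 1, are over different genes. That of replicate 1 includes pbs-4, at rank 25134, which had no summit in replicate 2, so these medians give no direction. The median of the alpha-ring genes went the other way from that of the lid genes, at 11243 in replicate 2 and 4087 in replicate 1. All these ranks are of the highest summit in a window, which could be a different peak in each replicate. At the highest pooled peak itself, replicate 2 had the lower rank number at rpn-3, rpn-8, rpn-9 and rpn-11. Replicate 1 had it at rpn-5 (3658 against 7265), rpn-7 (4662 against 8863) and rpn-12 (6740 against 12571). At rpn-6.1 only replicate 1 had a peak there, and at rpn-6.2 only replicate 2. With 1 library each, these are differences between these libraries, and their source was not tested.

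Among the lid genes the highest pooled peak was at rpn-3 (WBGene00004460, III, 8447353 to 8449346, plus strand), a scaffold subunit. Its summit ranked 714 in the pooled list, 1016 in replicate 1 and 972 in replicate 2, with heights of 43.5, 31.5 and 13.9. It lay upstream of the start in each list, at 161 bp in the pooled list, 208 bp in replicate 1 and 221 bp in replicate 2. This is the space of 443 bp that rpn-3 shares with the divergent gene hsp-110, which encodes a chaperone of the Hsp110 family, and the pooled summit was 283 bp upstream of the start of hsp-110. A non-coding RNA gene, C30C11.14, also starts in it, 97 bp from the pooled summit. The 151 bases around the pooled summit are shown because this shared space holds overlapping matches to the heat shock element-like motif. They are given on the plus strand of ce11, at chrIII:8447117-8447267, with the motif matches in capitals.
rpn-3 and hsp-110: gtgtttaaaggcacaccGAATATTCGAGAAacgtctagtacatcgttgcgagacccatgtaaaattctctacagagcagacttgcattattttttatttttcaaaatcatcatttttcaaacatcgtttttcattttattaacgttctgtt
The matches were GAANNTTC from 219 to 212 bp and TTCNNGAA from 214 to 207 bp upstream of rpn-3, which share 3 bases. They lay in the same stretch as the summits of both replicates.

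The other lid genes with a peak among the 1000 highest of replicate 2 were rpn-6.2, rpn-9, rpn-11, rpn-7 and rpn-6.1. The summit of rpn-6.2 (WBGene00010309, III, 8999817 to 9001999, minus strand), a close relative of rpn-6.1, was listed in replicate 2 and in the pooled list, and replicate 1 had no summit in its window. It ranked 514 in replicate 2 with a height of 16.1 and 22378 in the pooled list with a height of 12.8. It lay in coding sequence, 1713 bp after the start in replicate 2 and 1728 bp after it in the pooled list, and no other gene's window held it.

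The gene rpn-9 (WBGene00004465, II, 11237447 to 11238919, minus strand), which encodes a scaffold subunit, had its highest summit at rank 552 in replicate 2, 5736 in replicate 1 and 2048 in the pooled list, with heights of 15.8, 17.7 and 32.1. These lay 283 bp, 204 bp and 221 bp upstream of its start, in the space of 677 bp before the divergent gene T06D8.9. All 3 lists thus placed the rpn-9 summit upstream of the start. rpn-11 (WBGene00004467, II, 4043055 to 4044546, minus strand) encodes the deubiquitinase that cuts chains off substrates at the entry to the core. Its highest summit ranked 785 in replicate 2 with a height of 14.6 and lay in coding sequence 978 bp after the start, a place that was also in the flank of the convergent gene pqn-48. In the pooled list its highest summit ranked 3137 with a height of 28.5 and lay 11 bp upstream of the start, 214 bp beyond the end of K07D4.2. In replicate 1 its highest summit ranked 3648 with a height of 20.8 and lay 134 bp beyond the end.

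rpn-7 and rpn-6.1 encode further scaffold subunits of the lid. The genes lie on IV, 9316631 to 9318632, plus strand, and III, 6959110 to 6962001, minus strand. The highest rpn-7 summit ranked 919 in replicate 2 with a height of 14.04, at 390 bp upstream of rpn-7 and 26 bp upstream of the divergent gene F49C12.9. In the pooled list and replicate 1 it ranked 4341 and 4662, with heights of 25.7 and 19.0, and lay in coding sequence 415 bp and 384 bp after the start. The highest rpn-6.1 summit ranked 975 in replicate 2 with a height of 13.9, in coding sequence 348 bp before the end. In the pooled list and replicate 1 it ranked 2812 and 1452, with heights of 29.3 and 28.2, at 48 bp and 65 bp beyond the end, next to the convergent gene let-711. Of the lid genes not yet described, rpn-5 had pooled rank 2691, rpn-8, the partner of rpn-11, had 5872, and rpn-12 had 7583. The pooled rpn-12 summit lay 226 bp upstream of its start and 169 bp upstream of the divergent gene rad-23. rad-23 encodes a shuttle factor that brings ubiquitinated proteins to the proteasome, so that this space separates a shuttle factor gene from a proteasome gene.

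The non-ATPase subunits of the base had summits of middle rank and none among the 1000 highest peaks of any list. They include the large scaffold subunits rpn-1 and rpn-2 and the ubiquitin receptors rpn-10 and rpn-13. Pooled ranks were 3059 for rpn-2, 3748 for rpn-13, 5517 for rpn-1 and 7032 for rpn-10, with heights of 28.7 to 21.6. The highest rpn-2 summit ranked 3874 in replicate 1, at 209 bp beyond the end, and 4013 in replicate 2, in coding sequence 2234 bp after the start. These are different peaks: at the pooled peak of rpn-2 the replicates ranked 3874 and 9277. The highest rpn-13 summit ranked 11983 in replicate 1 and 2671 in replicate 2, and at its pooled peak the replicates ranked 12809 and 4534.

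In the alpha ring, which gates the channel of the core, pooled ranks ran from 921 to 26182 with a median of 4895. The highest was that of pas-3, at rank 921 in the pooled list, 861 in replicate 1 and 11243 in replicate 2, with heights of 40.6, 33.1 and 7.18. Its pooled summit lay 249 bp beyond the end and 50 bp into chp-1, the next gene on the same strand, with a non-coding RNA gene, Y110A7A.23, starting 108 bp away. The second highest was pas-1, at pooled rank 3568 with a height of 27.4, in coding sequence 195 bp after the start. At that peak replicate 1 ranked 10128 and replicate 2 ranked 3873. The highest pas-1 summit of replicate 1 was another peak, at rank 2982 and 288 bp beyond the end. The lowest were pas-2 at pooled rank 12057 and pas-4 at 26182, with heights of 17.5 and 11.6. The remaining alpha genes, pas-7, pas-5 and pas-6, had pooled ranks of 4135, 4895 and 5963.

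The beta ring, which carries the proteolytic sites, had the lowest peaks as a subcomplex in the pooled list and in replicate 1, with median ranks of 9845 and 8264. In replicate 2 the alpha ring had the lowest peaks instead, and the median rank was 7789 for the beta ring and 11243 for the alpha ring. Its highest was pbs-2, whose counterpart in yeast is a catalytic subunit, at rank 973 in the pooled list, 1477 in replicate 1 and 7064 in replicate 2, with heights of 40.0, 28.1 and 8.40. The pooled summit lay 256 bp beyond the end of pbs-2 and 165 bp upstream of tba-2, an alpha-tubulin gene on the same strand. The second highest was pbs-3 (WBGene00003949, II, 4954480 to 4955427, minus strand), which was the beta gene with high peaks in both replicates. It ranked 571 in replicate 1, 288 in replicate 2 and 1164 in the pooled list, with heights of 37.5, 18.3 and 37.9. These summits lay at its start, 129 bp after it in replicate 1, 112 bp upstream in replicate 2 and 40 bp upstream in the pooled list. The gene ulp-2, which encodes a SUMO protease, ends 22 bp upstream of pbs-3 on the same strand. The pooled summit and that of replicate 2 lay inside ulp-2, 17 bp and 89 bp before its end, and the summit of replicate 1 lay 152 bp beyond it. The lowest beta genes were pbs-4 and pbs-6, at pooled ranks 26903 and 28788 with heights of 11.3 and 10.8, and pbs-4 had no summit in replicate 2. The remaining beta genes, pbs-7, pbs-5 and pbs-1, had pooled ranks of 6857, 9845 and 10518. Within the ring, heights in the pooled list ran from 40.0 at pbs-2 to 10.8 at pbs-6.

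**Figure D3:**
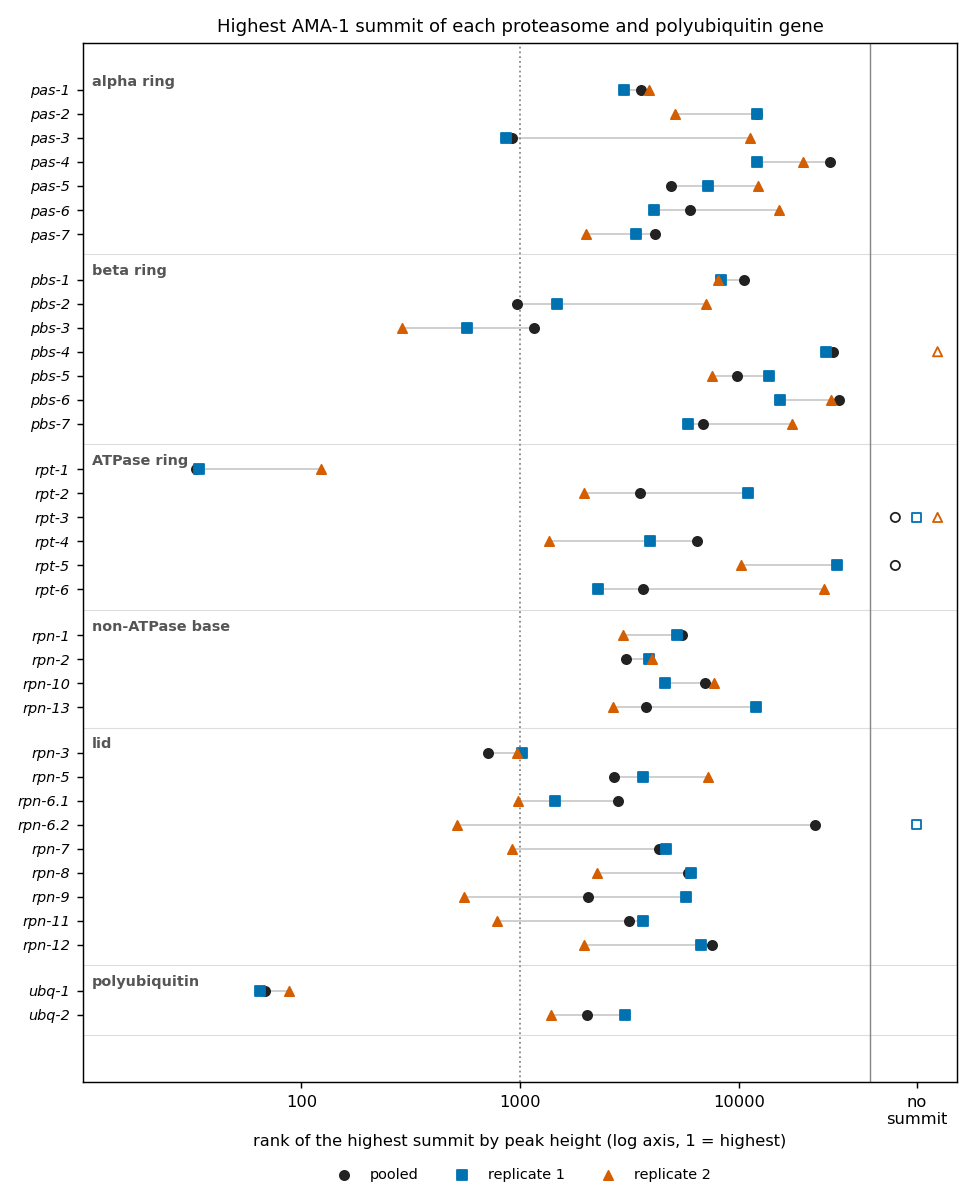
Rank of the highest summit of each of the 35 genes (horizontal axis, logarithmic, 1 is the highest peak of a list) in the pooled list, replicate 1 and replicate 2, grouped by subcomplex. Open symbols right of the line mark a list with no summit, and the dotted line marks rank 1000, left of which rpt-1 and ubq-1 lie in all 3 lists and 6 lid genes lie in replicate 2.

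Few members had a high peak in both replicates. Among the 1000 highest peaks of replicate 1, 4 genes (11.4%) had a summit, against 5.06% of all protein-coding genes. Among the 1000 highest of replicate 2, 9 genes (25.7%) had one, against 4.76% of all protein-coding genes. Only ubq-1, rpt-1 and pbs-3 (8.57%) were in both sets, against 1.93% of all protein-coding genes. Across the 32 genes with summits in both replicates, Spearman's rho of the highest heights was 0.476 and Pearson's r of the log2 heights was 0.608. Without ubq-1 and rpt-1 these were 0.364 and 0.367 over 30 genes, and over all 7832 protein-coding genes with both they were 0.382 and 0.452. These correlations are across genes of the same pair of libraries and are given with no p-value, since genes are not independent replicates.

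The replicates also differed in where the highest peak of a gene lay, at the members as at other genes. Of the 33 genes with a pooled summit, the highest pooled peak was overlapped by a peak of both replicates at 22 genes, by one of replicate 1 at 32 and by one of replicate 2 at 23. These are 66.7%, 97.0% and 69.7% of the members, against 52.9%, 82.5% and 66.6% of all protein-coding genes with a pooled summit. The highest summits of both replicates lay within 200 bp of each other at 7 of 32 genes (21.9%), against 27.1% of the 7832 protein-coding genes with both. They lay more than 500 bp apart at 18 of 32 (56.2%), against 62.4%, so the disagreement in place was near that of all genes. At those 18 genes the replicates had peaks in the same window but not the same highest summit.

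**Figure D4:**
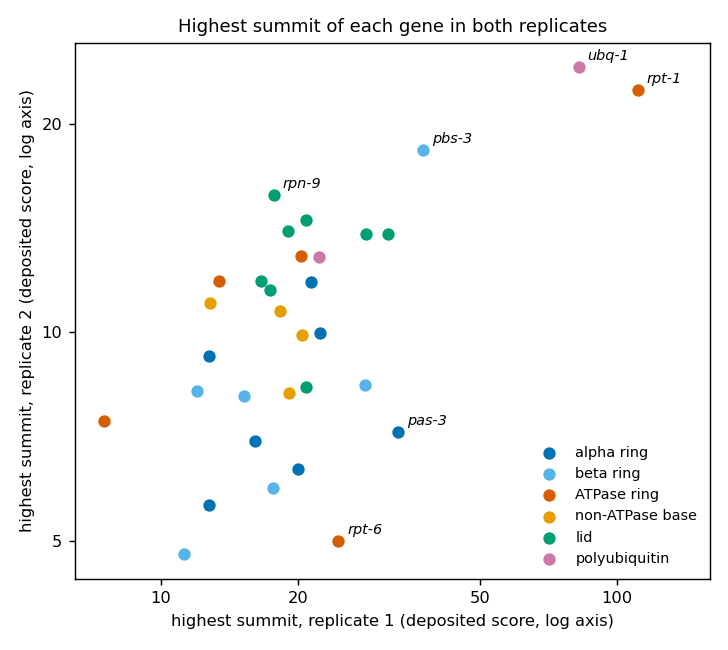
Height of the highest summit (deposited score, logarithmic axes) of each of the 32 genes with a summit in both replicates, replicate 1 on the horizontal and replicate 2 on the vertical axis, coloured by subcomplex. ubq-1 and rpt-1 stand apart at the upper right with heights of 82.3 and 111 in replicate 1, and the lid genes lie mostly in the upper part of the remaining cloud.

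The highest pooled summit of a member lay outside the gene body at a larger share of genes than over all protein-coding genes. It was in the body at 8 of 33 members (24.2%), against 57.4% of all protein-coding genes with a pooled summit. It lay beyond the end at 15 members (45.5%), against 28.0% of all genes, and before the start at 10 members (30.3%), against 14.6%. The share in the body was below that of all genes in each replicate too, at 36.4% against 54.4% in replicate 1 and 45.5% against 67.7% in replicate 2. These shares depend on length, since the flanks were 500 bp at every gene. The members had a median length of 1490 bp against 2027 bp for all protein-coding genes. Positions were not compared with those at genes of like length. A highest pooled summit beyond the end was not particular to the members. Other genes of the ubiquitin pathway had it too, among them ubc-25, let-70, ubc-3 and ubxn-3, but not wwp-1, and their share is not given here. The sides differed between the replicates. Beyond the end lay 48.5% of the members' highest summits in replicate 1, against 32.9% for all genes, but 18.2% in replicate 2, against 15.9%. Before the start lay 15.2% in replicate 1, against 12.7% for all genes, and 36.4% in replicate 2, against 16.4%. Within 250 bp of the start or the end it lay at 20 of 33 members (60.6%), against 42.5% of all genes, with 10 near the start and 10 near the end. Over all 91 pooled summits in the members' windows, 22.9 summits per 100 members fell into the bin from 300 to 200 bp before the start, and 22.9 into the bin from 200 to 300 bp beyond the end. These were the highest bins for the members, with 8 summits each, and the same bins held 3.02 and 6.99 summits per 100 of all protein-coding genes. No pooled summit was shared by the windows of 2 members.

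**Figure D5:**
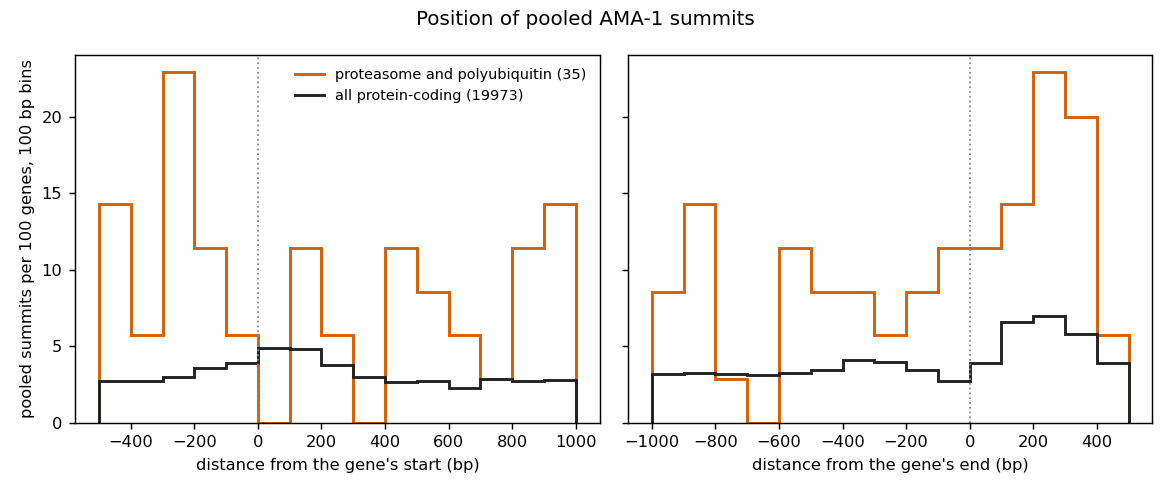
Pooled summits per 100 genes in bins of 100 bp (vertical axis) by distance from the annotated start (left) and end (right) for the 35 members and for all 19973 protein-coding genes, counted up to 500 bp outside the gene. The members' bins rest on 0 to 8 summits each, and the highest reach 22.9 summits per 100 genes on either side of the gene.

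More of the members than of all protein-coding genes had close neighbours. Whether this spacing went with the positions of the summits, gene by gene, was not tested. Another protein-coding gene lay within 500 bp before the start at 21 of 35 members (60.0%), against 33.7% of all protein-coding genes, and within 500 bp beyond the end at 30 members (85.7%), against 52.0%. Only 4 members (11.4%) had no such neighbour on either side, against 35.5% of all genes. Of the 33 highest pooled summits of the members, 7 (21.2%) lay in no other protein-coding window, against 4784 of 9906 for all genes with a pooled summit. Counting only summits in no other protein-coding window, 19 of 35 members (54.3%) had a pooled summit, against 35.4% of all protein-coding genes. The summits of pas-3, pbs-2, rpn-3, rpn-9, rpn-12 and the one beyond the end of rpt-1 lay within 500 bp of another protein-coding gene's start. Other highest pooled summits did so too, among them those of rpn-1, pbs-7, rpt-4, rpn-13, ubq-2 and rpn-8. Which gene's transcription these summits belong to was not tested. The intron summit of ubq-1 and the coding summit of rpn-6.2 lay in no other gene's window.

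The promoters were searched for 4 short motifs in the 300 bp from 250 bp upstream to 50 bp after the annotated start, on both strands. At some members this window reaches into the upstream gene on the same strand. At pbs-3 the gap to that gene was 22 bp and at rpn-6.2 it was 54 bp. It was 106 bp at pas-1, 110 bp at pbs-5, 118 bp at rpn-10 and 224 bp at rpn-11, which all count below with a motif. Proteasome genes are known targets of SKN-1, a relative of mammalian NRF factors, when proteasome function is impaired. A SKN-1-like motif, which is TATCAT or TGTCAT after any pair of A or T, was in 11 of 35 members' promoters (31.4%), against 16.5% of all protein-coding promoters. These were the promoters of pas-2, pas-6, rpt-2, rpt-6, pbs-1, pbs-6, rpn-2, rpn-5, rpn-8, rpn-11 and rpn-12. At rpn-11 the match lay inside the gene, from 24 to 31 bp after the start. The heat shock element-like motif, GAANNTTC or TTCNNGAA, which can overlap itself, was in 12 (34.3%), against 32.5% of all promoters. At ubq-1 it lay from 99 to 92 bp upstream of the start. At pbs-5 and rpn-10 it lay inside the gene, from 39 to 46 bp and from 37 to 44 bp after the start. TATAAA was in 10 (28.6%), against 37.9% of all promoters. CACGTG was in 1 (2.86%), that of rpn-6.2 with 2 matches, against 5.82% of all promoters. These counts describe letters in a window and do not show binding.

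Other genes of the ubiquitin pathway were compared with the members. The list held 66 genes for ubiquitin activation and conjugation, ligases, shuttling, deubiquitination and proteasome control, all of which were matched. In the relaxed pooled list 94.3% of the members had a summit, against 61 (92.4%) of these genes, and in the IDR list 5.71% of the members, against 5 (7.58%). The order of the median ranks differed between the lists. It was 4135 for the members against 3484 for these genes in the pooled list, and 4594 against 4495 in replicate 1. In replicate 2 the members ranked higher, at 2969 against 5749.5. Among the 5000 highest peaks, 54.3% of the members had a pooled summit against 56.1% of these genes. In replicate 1 it was 51.4% against 53.0%, and in replicate 2 54.3% against 42.4%. The 5 genes with an IDR summit were the ligase gene wwp-1 at pooled rank 21, the conjugating enzyme genes ubc-25 at 59, ubc-3 at 213 and let-70 at 347, and the shuttling gene ubxn-3 at 172. At ubc-25, let-70, ubc-3 and ubxn-3 the summit lay beyond the gene's end, by 498, 124, 90 and 245 bp. In replicate 2 the ranks were 36 for wwp-1, 127 for ubc-25, 506 for ubxn-3, 956 for let-70 and 4323 for ubc-3.

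The members were also set beside genes of other large complexes that every cell uses. An IDR summit was at 2 of 35 members, against 13 of 78 cytosolic ribosomal protein genes (16.7%) and 3 of 20 V-ATPase genes, which encode the proton pump of acidic organelles. The order with the V-ATPase genes turned in replicate 2: among as many of its highest peaks as the IDR list holds, 3 of 35 members had a summit, against 10 of 78 ribosomal protein genes and 0 of 20 V-ATPase genes. Among the 1000 highest of both replicates it was 3 of 35 members, against 9 of 78 ribosomal protein genes and 0 of 20 V-ATPase genes. In the relaxed pooled list the members had a summit at 94.3% of genes, against 97.4% of the ribosomal protein genes and 85.0% of the V-ATPase genes. The median pooled rank was 4135 for the members, 2102.5 for the ribosomal protein genes and 1532 for the V-ATPase genes. In replicate 2 the median rank was 2969 for the members, 2180 for the ribosomal protein genes and 9217.5 for the V-ATPase genes. These groups differ in size and length, and the differences were not tested.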

How the data were processed

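ChIP-seq peak lists of AMA-1 from 2 biological replicates of N2 late embryos were used as deposited by the authors on build ce11. Per the file headers and accompanying text, each replicate's relaxed list came from its own alignments and 1 further file, whose nature is not stated, the pooled list from both alignments, and the IDR list from these 3. The aligner, peak caller, versions, filters and depth are not stated in the sources used here. Peak height is column 7, a score deposited by the authors; the −log10 columns were not used. Each peak was given a rank by height and a 1-based summit.

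Summits were assigned to gene windows (start minus 500 bp to end plus 500 bp, Ensembl release 115) with Python 3.11.15, numpy 2.4.6 and pandas 2.3.3; a summit counted for every window holding it; the assignment script was tested on simulated data. Sequences came from the RefSeq genome of the same assembly. Every 31-base word was looked up on both strands of the genome to find those that occur once. All members are named, and those with an IDR summit, or among the 1000 highest peaks of the pooled list or a replicate, are given in full; the others by range, with the highest and lowest of each subcomplex. The members, lists and alternatives were chosen with earlier results of these data known. With 1 group and 2 samples no test was made. Alternative windows, list depths, single replicates and assignments were tried.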

Additional observations from a re-analysis of the deposited data

How the results depend on the processing

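The 2 genes with an IDR summit were 1 with the gene body only and 4 with the 952 highest pooled peaks; they ranged from 2 to 3 with as many of either replicate's highest peaks, and stayed 2 without the flank beyond the end, with 250 bp flanks, by nearest gene, by peak interval, with the upper part of the IDR list and in 2 alternatives chosen after seeing the data (without summits near small RNA genes, and with summits in no other protein-coding window). The 3 genes among the 1000 highest of both replicates were 1 with the gene body only and 2 by nearest gene. They were 2 with the 500 highest of each replicate, 5 with the 2000 highest and 12 with the 5000 highest. Replicate 1 alone gave 4 and replicate 2 alone 9. The 33 genes with a pooled summit were 19 when only summits in no other protein-coding window counted, chosen after seeing the data, and 33 with either replicate alone. The 20 genes with the highest summit near the start or end were 6 within 100 bp and 31 within 500 bp, and 18 in replicate 1 and 12 in replicate 2. The median rank of 4135 was 6303 without the flank beyond the end and 8777 in the gene body only, and 4594 in replicate 1 and 2969 in replicate 2. No median of all protein-coding genes is given for the narrower windows. Whether the members ranked higher than all genes in those windows is therefore not shown. No paired analysis was possible because there is 1 group and no test. Read depth is unknown, so a gene without a summit may be below detection.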
